A study of Mus musculus and Homo sapiens with 20 samples.

Results

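Among 2395928 autosomal bins of 1 kb (mm10, chromosomes 1 to 19, at least 50% known bases), 11454 gained H3K27me3 in Tet2-KO HSPCs. They were chosen by the H3K27me3 peak lists themselves: each bin was covered by peaks over at least 50% of its length in both KO libraries and in neither WT library. These bins made up 0.478% of the autosomal bins, beside 8003 bins (0.334%) that met the mirrored rule and lost the mark, and 104443 bins that were marked in all 4 lists. The libraries were CUT&Tag peak lists, 2 per group, for H3K27me3 and H2AK119ub in lineage-negative, c-Kit-positive (LK) bone marrow cells, called HSPCs here, and in mouse embryonic stem (mES) cells. The HSPCs came from C57BL/6 WT mice and from Tet2-/- mice backcrossed to that strain, aged 6 to 8 weeks, and were enriched on magnetic beads, so a group is a mixture of stem cells and committed progenitors. The Tet2 deletion was in the germ line rather than restricted to blood. The mES cells were Tet2 WT and Tet2-KO lines kept in medium with LIF and 2 inhibitors. The labels gave replicate numbers but not whether replicates came from separate animals or cultures, so the spread between them may be technical.

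H3K27me3 is deposited by Polycomb repressive complex 2 and H2AK119ub by Polycomb repressive complex 1, and both mark genes that are held silent. In stem cells and progenitors they sit over the CpG-rich promoters of developmental regulators and spread from there into broad domains. TET2 oxidises methylated cytosine in DNA and, per the study, in RNA, and its gene is often mutated in myeloid malignancies. BAP1 within the PR-DUB complex removes H2AK119ub, and the study asked how the axis from TET2 to MBD6 and PR-DUB sets this mark.

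To show what a gained region looks like, the 200 bases with most CpG dinucleotides are given for the runs of adjacent gained bins ranked 2 to 4 by length and for the bin richest in CpG among those that lay over 10 kb from a WT domain, were at 0% in both WT lists and at 100% in both KO lists. All are plus-strand GRCm38 (mm10) reference sequence, 5′ to 3′, with CG in capitals.
Kcnip3 intron, chr2:127501014-127501213: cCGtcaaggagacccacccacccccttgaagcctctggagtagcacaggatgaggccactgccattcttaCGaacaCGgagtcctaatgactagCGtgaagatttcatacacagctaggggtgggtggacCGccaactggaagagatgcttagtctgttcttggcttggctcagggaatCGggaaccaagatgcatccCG
Otos neighbourhood, chr1:92715370-92715569: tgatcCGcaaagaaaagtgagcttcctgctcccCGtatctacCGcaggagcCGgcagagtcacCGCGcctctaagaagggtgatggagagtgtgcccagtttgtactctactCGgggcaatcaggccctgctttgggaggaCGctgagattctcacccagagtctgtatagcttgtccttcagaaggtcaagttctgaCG
Phf24 neighbourhood, chr4:42895029-42895228: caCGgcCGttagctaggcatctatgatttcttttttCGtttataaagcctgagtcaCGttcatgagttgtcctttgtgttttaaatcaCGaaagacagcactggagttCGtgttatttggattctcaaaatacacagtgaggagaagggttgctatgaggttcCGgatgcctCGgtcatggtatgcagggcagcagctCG
4931406P16Rik start, chr7:34313180-34313379: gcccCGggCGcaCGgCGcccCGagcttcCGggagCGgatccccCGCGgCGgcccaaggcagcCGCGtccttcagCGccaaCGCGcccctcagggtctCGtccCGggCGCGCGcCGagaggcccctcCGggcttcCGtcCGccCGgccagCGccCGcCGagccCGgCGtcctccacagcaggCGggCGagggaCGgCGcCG
The Kcnip3 stretch was intronic and held 7 CG. The second and the third held 9 CG each and were outside protein-coding genes. The last held 35 CG and was intronic in 4931406P16Rik, 172 bases from its annotated start, in a bin with 108 CG.

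The KO lists held 24.3 and 21.7 Mb of H3K27me3 on the X chromosome, against 1.05 and 1.07 Mb in the WT lists. H2AK119ub on X also differed, at 2.51 and 2.69 Mb in KO HSPCs against 0.541 and 0.329 Mb in WT HSPCs. Mice of both sexes were used in the study and the labels did not give the sex of a library. A difference in sex between the groups therefore cannot be told apart from genotype, on X or on the autosomes. X was not used here. Over autosomes the 4 H3K27me3 lists were close in length, at 164 and 166 Mb in WT and 177 and 163 Mb in KO. The H2AK119ub lists spanned 171 and 138 Mb in WT HSPCs and 166 and 174 Mb in KO HSPCs, so WT replicate 2 was the shortest of its 4 lists. Replicates differed a good deal at single bins: 126214 bins were marked in both WT H3K27me3 lists and 77690 in 1 of the 2, while 135409 were marked in both KO lists and 69065 in 1 of the 2. The lists hold positions without read numbers, so their depth, and with it the counting error, is unknown. Low promoter H3K27me3 is the usual state of genes in use. The promoters of the progenitor genes Tal1 and Gata2 were nevertheless fully covered in all 4 lists, and those of Lmo2 and Myb were at 0% in all 4. The other 4 progenitor promoters checked varied between libraries, with Cd34 at 25.04% to 53.5%, Kit at 38.3% to 66.3%, Spi1 at 3.90% to 27.3%, and Runx1 at 27.99% in WT replicate 1 and 0% in the other 3. Peak lists carry no RNA levels, so the labelled cell type could not be checked from its expressed markers. The deletion could not be checked in them either, since the Tet2 span held 0% H3K27me3 in both WT lists and 0% and 0.482% in KO.

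Most gained bins stood alone and were only partly covered. In the WT lists the mean coverage of the gained bins was 13.2% and 13.3%, with 56.3% and 56.5% of them at 0. In the KO lists it was 80.4% and 77.7%, with 41.7% and 36.1% fully covered. These values chose the bins and are a description. Bins at 0% in both WT lists numbered 4794 (41.9%), and 549 of those were at 100% in both KO lists. Close to the threshold, 4625 gained bins were covered between 50% and 60% in the lower KO list, while 5510 further bins unmarked in WT fell between 40% and 50%. Many peaks shared a width just over 50% of a bin, and how many of the 4625 rest on a single such peak was not tested. On the WT side, 2798 gained bins reached 40% to 50% in the higher WT list, and 6220 bins marked in both KO lists were left out at 50% to 60%. The bins formed 10364 runs, of which 9485 (91.5%) were a single bin, 735 were of 2 bins and 11 were of 5 or more. Lost bins had 7462 runs, 94.0% of them single. With a library left out the rule asks for fewer lists, and for fewer on 1 side: without WT replicate 1 or 2 there were 20548 and 21873 gained against 27010 and 26555 lost bins, and without KO replicate 1 or 2 there were 26058 and 31527 gained against 16754 and 13020 lost. The order of the 2 counts in those settings follows from the rule and bears on neither direction.

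Gained bins lay close to domains that WT HSPCs already carried. A WT domain is taken here as the bins marked in both WT lists. Of the gained bins, 3555 (31.0%) touched such a domain and 6183 (54.0%) lay within 2 kb, with a median of 2 kb and 447 bins (3.90%) beyond 100 kb. Bins unmarked in all 4 lists were at a median of 113 kb, and 4.17% of them were within 2 kb. Lost bins had nearly the same relation to KO domains, with 36.1% touching and 60.9% within 2 kb. When a bin marked in either WT list counted as domain, 80.2% of gained and, with either KO list, 80.5% of lost bins were within 2 kb. Gaps of 1 kb between WT domains numbered 10936, and 720 of them (6.58%) were filled by a gained bin. Between KO domains, 559 of 11970 such gaps (4.67%) held a lost bin. The share of bins gained was 6.86% in gaps of 2 kb, 3.28% in gaps of 6 to 20 kb and 0.277% in wider gaps, and the wider gaps still held 51.8% of all gained bins.

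**Figure D1:**
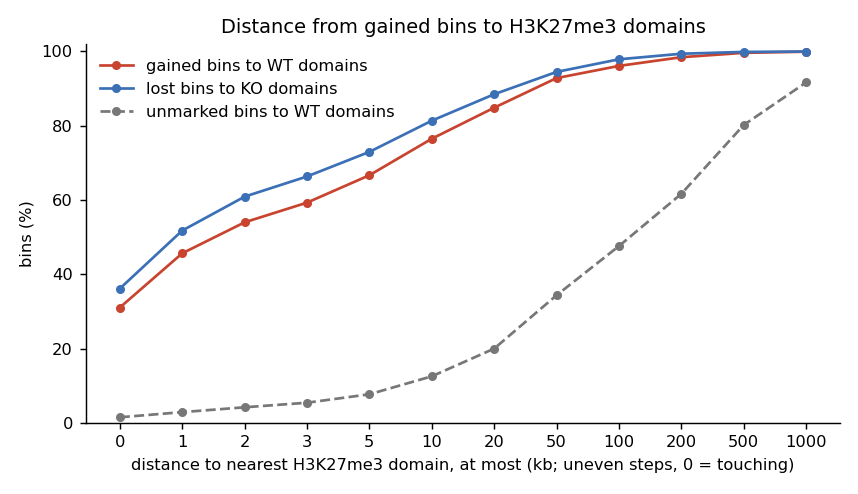
Cumulative share of bins (y axis, %) within a given distance in kb (x axis, uneven steps) of the nearest H3K27me3 domain, for gained bins to WT domains, lost bins to KO domains and unmarked bins to WT domains. Within 2 kb lay 54.0% of gained, 60.9% of lost and 4.17% of unmarked bins.

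Around gained bins, more of the neighbouring bins were marked in the KO lists, and around lost bins more were marked in the WT lists. At 5 kb upstream on the plus strand, 27.1% and 28.2% of bins were marked in WT and 42.4% and 37.8% in KO around gained bins. Around lost bins they were 35.5% and 36.1% in WT and 30.3% and 28.5% in KO. At 20 kb downstream of gained bins the shares were 26.2% and 26.7% in WT and 36.7% and 33.4% in KO. Both KO libraries lay above both WT libraries at these distances, and neighbours that were themselves gained bins are included, and the same lists chose the bins, so no test was made.

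**Figure D2:**
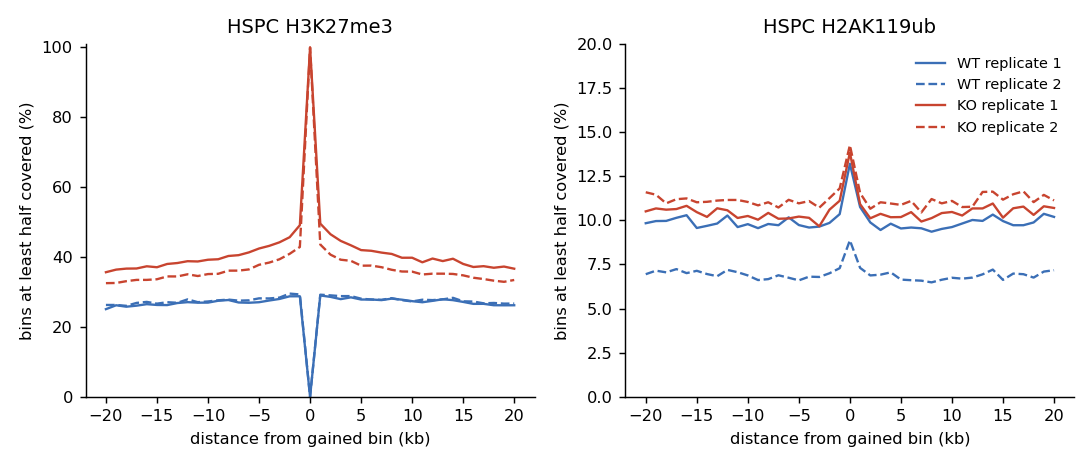
Share of 1-kb bins at least 50% covered by peaks (y axis, %) against distance in kb from the gained bin (x axis), for H3K27me3 (left) and H2AK119ub (right) in the 4 HSPC libraries of each mark, one line per library. H3K27me3 at distance 0 is fixed by the rule, and WT replicate 2 is the lowest H2AK119ub line throughout.

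In base composition the gained bins stood between Polycomb domains and the unmarked genome. They had 11.996 CpG per kb on average (10th to 90th percentile 4 to 19), against 18.7 in bins marked in all 4 lists, 13.6 in lost bins and 7.71 in bins unmarked in all 4. Unmarked bins within 2 kb of a WT domain, the nearest comparison by position, had 10.8. GC content was 47.1% in gained and 44.3% in those neighbouring bins, and repeat-masked sequence 19.5% and 30.1%. CpG-dense bins with 40 or more CpG were 2.22% of gained bins, 0.931% of all autosomal bins and 10.3% of bins marked in all 4. Protein-coding genes overlapped 5349 gained bins (46.7%), against 42.0% of all autosomal bins and 49.8% of the neighbouring unmarked bins. Introns made up 41.0% of the gained bases, coding exons 2.04%, 5′ UTRs 0.669%, 3′ UTRs 1.08% and non-coding genes outside protein-coding spans 8.22%. Bins touching the promoter, meaning 1 kb on each side of a protein-coding start, were 547 (4.78%), against 2.43% of all autosomal bins. The share was higher among lost bins (8.26%), neighbouring unmarked bins (8.56%) and bins marked in all 4 (14.4%). These are descriptions of sets of bins and carry no test.

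Gained bins at different distances from a WT domain differed in makeup. The 2694 bins over 10 kb away (23.5% of the gained bins) had 14.3 CpG per kb, 6.05% of them were CpG-dense and 8.91% touched a promoter. The 3555 touching bins had 11.6 CpG per kb, with 1.18% CpG-dense and 5.18% at a promoter. The 5205 bins at 1 to 10 kb had 11.1 CpG per kb, with 0.941% CpG-dense and 2.36% at a promoter. In WT HSPCs, 16.5% and 11.7% of the distant bins carried H2AK119ub against 11.0% and 7.76% of the touching bins, and in KO HSPCs 18.0% and 18.3% against 11.8% and 12.1%. The bins at 1 to 10 kb had 13.03% and 8.15% in WT and 13.1% and 13.7% in KO, so H2AK119ub was lowest in touching bins while CpG and promoter overlap were lowest at 1 to 10 kb.

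The gains were spread unevenly over the genome. By chromosome they covered between 0.210% of bins (chromosome 16) and 0.804% (chromosome 7), with 0.796% on chromosome 9 and 0.792% on chromosome 11. Losses outnumbered gains on chromosomes 10, 16, 17 and 19. Per 100 bins marked in all 4 lists the order was different, from 6.59 gained bins on chromosome 19 to 14.4 on chromosome 12. Chromosome 3, which carries Tet2, had 0.273% of its bins gained and 12.3 gained bins per 100 marked in all 4, and within 10 Mb of the gene on each side there were 50 gained and 58 lost bins. Of 2413 windows of 1 Mb, 919 held no gained bin, while 146 windows with 20 or more held 4842 (42.3%) of them. For the fewer lost bins, 1067 windows held none and 45 held 20 or more, with 14.5% of them; the same cut is harder to reach with 8003 bins than with 11454. The 8 windows with most gains held 61 to 79 gained and 2 to 10 lost bins. The first, chr4:131000001-132000000, includes the receptor phosphatase gene Ptpru, and its H3K27me3 covered 245 and 268 kb in WT and 433 and 366 kb in KO. The second, chr4:125000001-126000000, includes the kainate receptor gene Grik3 and went from 515 and 535 kb to 681 and 653 kb.

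**Figure D3:**
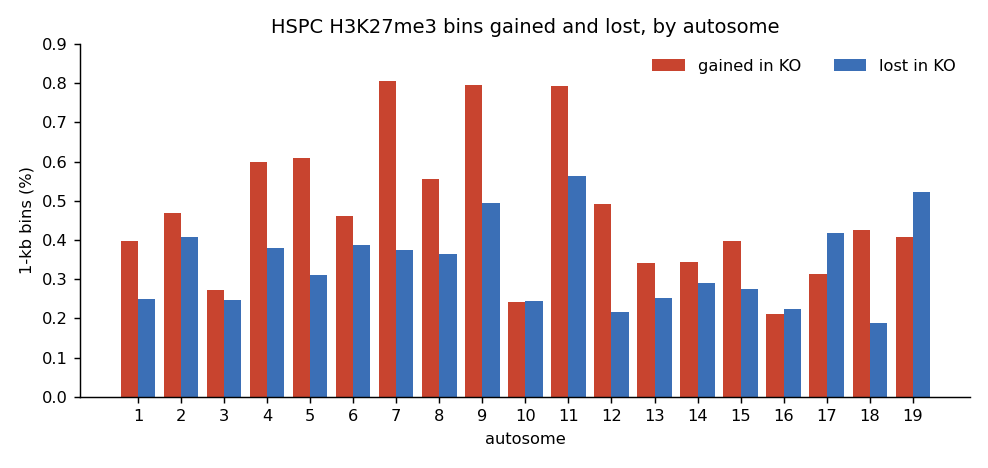
Percent of 1-kb bins (y axis) that gained or lost H3K27me3 in KO HSPCs on each autosome (x axis). Gains ranged from 0.210% on chromosome 16 to 0.804% on chromosome 7, and losses exceeded gains on chromosomes 10, 16, 17 and 19.

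The longest run of gained bins was intergenic. It covered chr8:90426001-90440000, 14 kb, with no annotated gene in it and the start of Tox3, an HMG-box gene, 77658 bases away. Both WT lists were at 0% there and the KO lists at 95.8% and 96.3%. H2AK119ub covered 0%, 0% in WT HSPCs and 7.11%, 0% in KO HSPCs, and in the mES lists H3K27me3 covered 0% to 3.58% and H2AK119ub 6.46% to 13.8%, so little of this run was marked elsewhere. The next runs were 7 kb each. One lay in Kcnip3, a calcium-binding partner of potassium channels, at chr2:127498001-127505000, wholly intronic, at 0% in both WT lists and 100% and 94.0% in KO. The same 7 kb were fully covered by H3K27me3 in all 4 mES lists, and H2AK119ub covered 49.5% and 55.0% in WT HSPCs and 89.8% and 70.7% in KO HSPCs. The other, at chr1:92715001-92722000, lay 66160 bases from the start of Otos and overlapped the non-coding gene Gm29483. Its H3K27me3 was 7.16% in each WT list and 97.3% and 94.0% in KO.

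Of the 5 further runs named by length, 2 were in Slc6a2, which encodes the noradrenaline transporter. Its run at chr8:92967001-92973000 went from 0% and 7.15% to 89.98% and 100%, and held 370 coding bases with the rest intronic. The run at chr8:92994001-93000000 went from 18.8% and 8.35% to 79.3% and 63.3% and held 591 coding and 2354 UTR bases. A 6-kb run between genes, chr4:137197001-137203000, lay 74489 bases from the start of Wnt4, a secreted signalling factor, and went from 0% and 16.7% to 100% and 94.1%. The remaining runs, chr4:42895001-42901000 and chr4:42889001-42894000, were both at 100% in both KO lists and at 0% to 3.75% in WT. These neighbours are near Fam205c and Phf24. Reads there could be shared with copies to a small extent: 3.94% and 1.99% of their 32-base words occurred again on the autosomes, and no named run exceeded 5.98%.

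Genes collected the gained bins unequally. Of 20807 autosomal protein-coding genes, 2117 held at least 1 gained bin over the span, 447 held 3 or more and 105 held 10 or more. The 105 genes were long, with a median of 328 kb against 17.6 kb for all genes. They occupied 1.87% of the autosomal bins and held 17.6% of the gained and 2.54% of the lost bins. Gained bins outnumbered lost bins in 104 of the 105, and 42 had no lost bin. The 17.6% and these counts follow from the choice of the genes by their gained bins. For losses, 326 genes held 3 or more lost bins and 18 held 10 or more, and 10 of those 18 had no gained bin.

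Ion channels, adhesion molecules and signalling proteins were among the 14 genes with most gained bins. Camta1, a calmodulin-binding transcription factor, had 60 gained and 3 lost bins over 945 kb, and its H3K27me3 covered 19.2% and 21.7% of the span in WT and 33.4% and 30.1% in KO. Grik4, a kainate glutamate receptor subunit, had 51 gained bins and went from 41.9% and 42.1% to 67.8% and 62.8%. Kcnd3, a voltage-gated potassium channel, went from 9.72% and 10.2% to 45.0% and 38.1% with 40 gained and 0 lost bins. These genes were chosen by the same 4 lists, so their higher KO values are a description. Ksr2, a scaffold of the RAF-MEK pathway, had 46 gained bins and went from 11.8% and 9.80% to 33.8% and 30.6%. Cacna1c, the pore subunit of an L-type calcium channel, had 46 gained and 8 lost bins, at 38.1% and 38.6% in WT and 53.9% and 47.6% in KO. Nav2, linked to neurite growth, had 44 and went from 25.6% and 27.6% to 42.7% and 39.2%. The promoter of Cacna1c was at 0% in all 4 lists, so the gain in that gene lay outside the annotated start. Slit3, a secreted axon guidance ligand, went from 29.9% and 28.8% to 44.3% and 37.6%. Cdh4, a cadherin, went from 38.4% and 41.0% to 58.9% and 53.4%. Klhl29, a kelch-domain gene, went from 22.4% and 25.4% to 49.9% and 45.1% and had no lost bin.

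The spans of Asic2 (an acid-sensing ion channel), Apbb2 (a binding partner of the amyloid precursor protein) and Myo16 (an unconventional myosin) gained 37, 28 and 28 bins. Apbb2 went from 12.5% and 14.5% to 27.9% and 27.8% in HSPCs, while its H3K27me3 in mES cells was 0% to 0.157%. Asic2 went from 22.8% and 22.2% to 35.4% and 28.0%, and Myo16 from 26.02% and 25.1% to 38.7% and 37.1%. Counts for the 2 other genes rest on very long annotated spans. Fgfr2, a fibroblast growth factor receptor, headed the list with 77 gained and 15 lost bins over a 2961-kb GENCODE span that overlaps 30 other protein-coding genes, and went from 15.7% and 15.8% to 22.3% and 19.3%. Gm20388, annotated over 4435 kb and 73 other genes, held 36 gained and 59 lost bins, and its covered share was 34.7% and 34.5% in WT and 34.5% and 33.0% in KO.

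**Figure D4:**
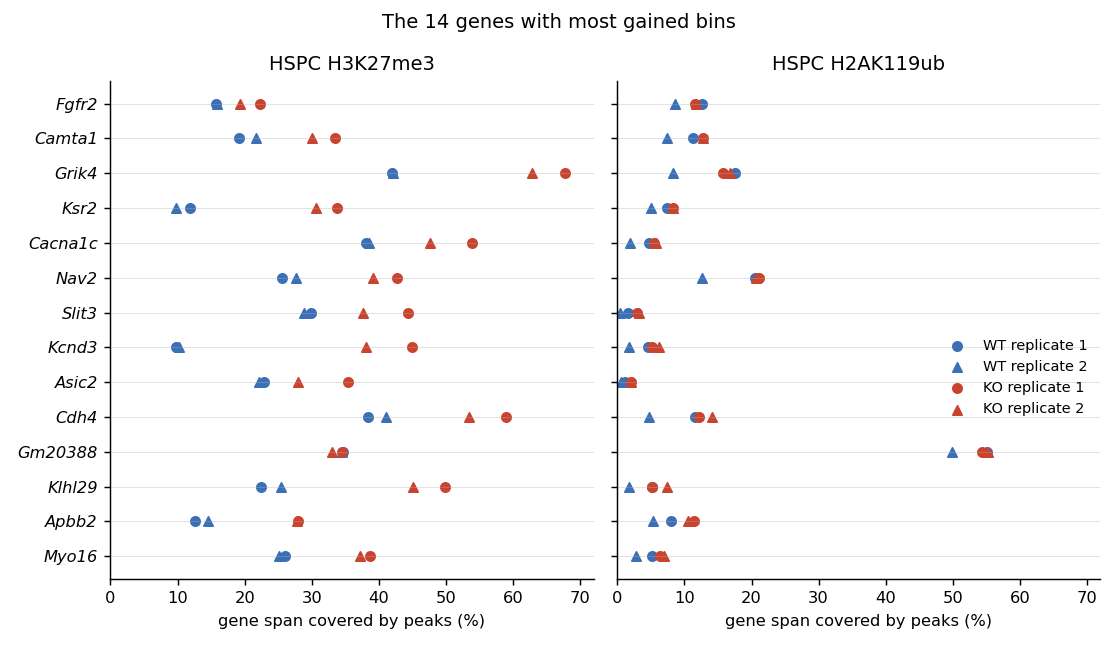
Percent of the gene span covered by peaks (x axis) for the 14 genes with most gained bins (y axis), for H3K27me3 (left) and H2AK119ub (right) in HSPCs, one point per library. H3K27me3 of KO lay above WT in 13 of the 14 by choice of the genes, with Gm20388 the exception, while H2AK119ub points lay close together, with WT replicate 2 lowest in each.

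By density, 2 shorter genes stood out, chosen after their values were seen as those of at least 20 kb with the largest share of the span gained. Slc6a2 had 21 gained and 0 lost bins over 41.6 kb and went from 17.8% and 16.4% to 75.2% and 72.9%. Kcnip3 had 22 and 0 over 65.6 kb and went from 16.4% and 20.8% to 68.8% and 63.5%. H2AK119ub values overlapped between the groups in both genes: Slc6a2 had 22.5% and 9.27% in WT and 10.5% and 13.99% in KO, and Kcnip3 58.1% and 47.3% in WT and 57.3% and 55.6% in KO.

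Promoters accounted for few of the gains. Among 20807 promoters, 249 (1.2%) were at 0% H3K27me3 in both WT lists and above 0% in both KO lists, and 270 (1.3%) met the mirrored rule. Of the 249, 207 were covered by at least 25% in both KO lists and 122 also had a gained bin over the gene. The largest were promoters with no peak base in either WT list. Fam205c was at 100% in both KO libraries. The 4931406P16Rik promoter, whose bin is printed above, was at 98.9% and 96.3%. Ptchd4, a patched-domain gene, was at 87.2% and 88.5%, and Krt13, a keratin of stratified epithelium, at 66.9% and 76.8%. These promoters differed in mES cells, where H3K27me3 covered the promoter of Ptchd4 by 94.2% to 100% and that of 4931406P16Rik by 0% in all 4 lists. Lsamp, a neuronal adhesion protein, was at 67.9% and 57.8%, Myt1l, a neuronal zinc-finger factor, at 52.4% and 79.8%, and Clvs2 at 53.3% and 47.2%. Ankrd28, a regulatory subunit of protein phosphatase 6, was at 61.3% and 50.0%, with H2AK119ub on the same promoter at 70.4% and 68.8% in WT and 93.7% and 87.7% in KO. Sequence copies touch the other promoters: 73.1% of the 32-base words of the 2610042L04Rik promoter and 24.1% of those of Clca3a2 occurred again on the autosomes, so their values of 75.1% and 62.1% and of 48.3% and 59.2% are uncertain.

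Lists of blood lineage and Polycomb genes held between 0 and 2 genes each with a gain. Over all 20807 genes, 2558 had a lost bin over the span, and 2244 (10.8%) had a gained bin over the span or a gained promoter. Among stem and progenitor regulators it was 1 of 20, Gfi1, a transcriptional repressor, with 1 bin, while 6 of the 20 had a lost bin. Among myeloid genes it was 0 of 15, and 3 had a lost bin. Erythroid and megakaryocytic genes gave 2 of 13, with 19 bins in Ank1, the erythrocyte ankyrin, whose covered span was 41.2% and 36.05% in WT and 57.8% and 53.0% in KO, and 1 bin in Zfpm1, the GATA1 cofactor FOG1. B lymphoid genes gave 2 of 15: Pax5, the B cell commitment factor, had 4 bins and went from 74.8% and 75.7% to 84.8% and 80.2%, and Ebf1, which acts upstream of it, had 2 bins with overlapping values of 29.5% and 29.2% in WT and 35.9% and 29.9% in KO. T and NK genes gave 1 of 15, with 10 bins in Bcl11b, a T cell commitment factor, at 51.9% and 48.5% in WT and 71.9% and 65.1% in KO. Mast cell, basophil and eosinophil genes gave 1 of 12, with 1 bin in Epx, the eosinophil peroxidase, whose span values overlapped between groups. Lost bins lay in 5 of the 13 erythroid and megakaryocytic, 4 of the 15 B lymphoid, 5 of the 15 T and NK and 0 of the 12 mast cell, basophil and eosinophil genes. The shares with a gain, from 0% to 15.4%, lie on both sides of 10.8% and rest on small counts.

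Markers of marrow stroma and endothelium, which a bead-enriched fraction can still hold, gave 2 of 10. Kitl, the ligand of KIT made by niche cells, had 5 bins and went from 20.8% and 19.9% to 32.3% and 27.3%, and Lepr, the leptin receptor of stromal cells, had 1. The stromal promoters holding H3K27me3 were 8 and 8 of 10 in WT and 7 and 8 in KO, so marking of this list did not differ between groups by more than 1 promoter. Polycomb developmental targets gave 1 of 20, Pax7, a muscle lineage factor, with 1 bin over a span already covered at 81.2% and 81.4% in WT and at 86.9% and 85.5% in KO. All 20 of these promoters held H3K27me3 in each of the 4 lists, while 56.0% of all promoters held it in both WT lists. Lost bins lay in 1 of the 10 stromal genes and 1 of the 20 developmental targets, and in 2558 of all 20807 genes. Of 31 Polycomb and PR-DUB genes, 7 had a lost bin and 1 had a gain: Cbx6, a Polycomb chromobox protein, had 1 gained bin and a promoter at 0% in both WT and 49.9% and 43.3% in KO. The covered span of Cbx6 overlapped between groups, at 24.7% and 16.4% in WT and 15.0% and 20.8% in KO. Tet2, Mbd6, the feedback inhibitor Socs3 and Nfkbia, the NF-κB inhibitor, held 0 gained bins.

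The first independent question was whether gained bins also changed in H2AK119ub. The exact permutation test used cannot give a p below 0.333 with 2 libraries against 2. H2AK119ub marked 13.2% and 8.87% of the gained bins in WT HSPCs and 13.8% and 14.3% in KO HSPCs, or 11.0% ± 3.07 against 14.1% ± 0.296 (SD, n = 2). Both KO values lay above both WT values, by 3.02 percentage points on average, and the exact two-sided permutation test gave p = 0.333 (adjusted over 6 tests, 0.667), the smallest p that 2 against 2 libraries allow. WT replicate 1 lay close to both KO libraries, and without WT replicate 2 the difference was 0.847 points. As a log2 ratio to the share over all autosomal bins, which takes list length into account, the values were 0.89 and 0.62 in WT and 1.00 and 0.97 in KO, a difference of 0.23 (exact permutation p = 0.333, adjusted 0.667). Without WT replicate 2 it was 0.10 and without WT replicate 1 it was 0.37. Set against lost bins, the difference was 0.142 points with overlapping groups (exact permutation p = 1, adjusted 1), and it changed sign under several settings. Separated groups were not limited to gained bins. Among bins marked in all 4 H3K27me3 lists, KO libraries carried H2AK119ub on 46.7% (replicate 1) and 48.6% (replicate 2). WT libraries reached 43.0% (replicate 1) and 33.7% (replicate 2) there. In lost bins and in unmarked bins the groups overlapped. Gained bins carried H2AK119ub less often than lost bins in every library, where the share was 32.4% to 40.035%. They also lay below the unmarked bins within 2 kb of a WT domain in every library, at 14.8% to 15.9%. The positive log2 ratios therefore hold against all autosomal bins and not against these neighbours. Whether gained bins differed from the bins marked in all 4 was not tested.

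Few single bins gained both marks. Of all autosomal bins, 0.587% gained and 0.333% lost H2AK119ub in KO HSPCs by the same rule. Of the gained H3K27me3 bins, 131 (1.14%) gained and 34 (0.297%) lost H2AK119ub, and in unmarked bins within 2 kb of a WT domain the shares were 1.08% and 1.01%. Lost H3K27me3 bins had higher shares, 2.26% and 1.44%. With 1 of the 4 H2AK119ub libraries left out, so that fewer lists had to meet the rule, the 1.14% became 1.68% to 4.61%. No H2AK119ub list marked 8803 (76.9%) of the gained bins, while 618 (5.40%) carried it in all 4, against 87.7% and 2.76% of all autosomal bins. The CpG-dense bin at the 4931406P16Rik start was among the 131: H2AK119ub covered it by 0% and 0% in WT and 100% and 59.9% in KO. Over promoters, 139 of the 249 with gained H3K27me3 held H2AK119ub in both WT lists and 167 in both KO lists. Those shares, 55.8% and 67.1%, compare with 63.1% and 69.4% of all promoters, and 6 of the 249 went from 0% in both WT to above 0% in both KO lists.

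Over whole genes the H2AK119ub lists gave more separated values. In 69 of the 105 genes with 10 or more gained bins (65.7%), both KO HSPC libraries covered more of the span with H2AK119ub than both WT libraries, and in 0 they covered less. Over all 20807 genes, 17.9% were higher and 9.9% lower in KO in this sense. The size was small, with a median difference of 2.05 percentage points of the span and medians of 4.21% and 2.15% in WT and 5.17% and 5.06% in KO. Length and prior H3K27me3 moved with this share: it was 30.6% over genes of at least 100 kb and 41.0% over genes with 10 or more bins marked in all 4 lists and no gained bin. WT replicate 2 was the lowest of the 4 in 98 of the 105 genes. Without it, both KO libraries exceeded WT replicate 1 in 71 genes (67.6%) and fell below it in 11 (10.5%). Over all genes these shares were 24.98% and 28.1%, and over genes of at least 100 kb 34.3% and 32.7%. Over genes with 10 or more bins marked in all 4 lists and no gained bin they were 45.5% and 24.3%. By all 4 libraries, 53.7% of genes with 3 or more gained bins were higher and 1.34% lower in KO. For genes with 3 or more lost bins the share higher was 36.5% and the share lower 6.44%. For the 18 genes with 10 or more lost bins they were 27.8% and 11.1%. Whether length, list size or genotype accounts for the separated values was not tested.

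**Figure D5:**
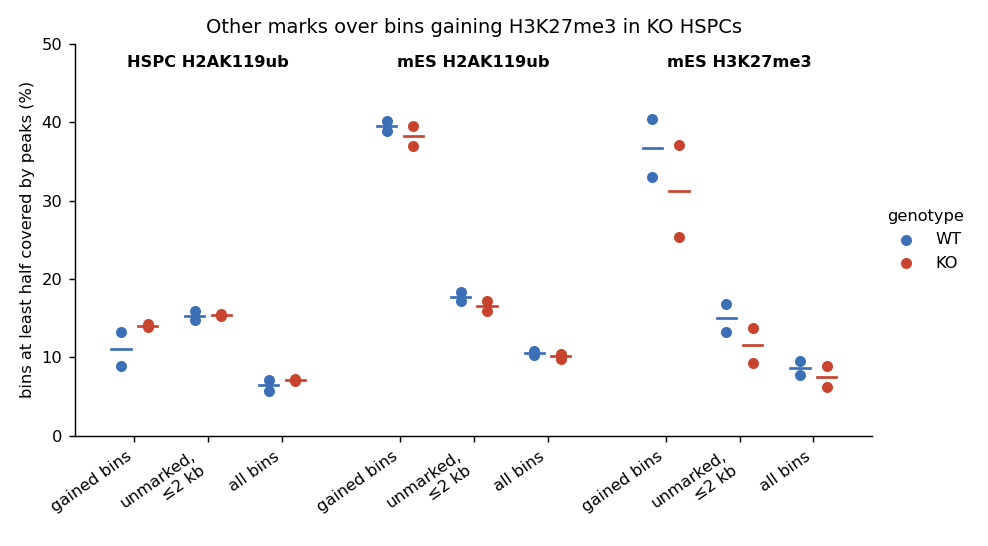
Share of 1-kb bins at least 50% covered by peaks (y axis, %) in gained bins, in unmarked bins within 2 kb of a WT domain and in all autosomal bins (x axis), for the 3 mark and cell type pairs that did not choose the bins. Points are libraries and bars are means of 2, and in mES cells gained bins sit between 25.3% and 40.4%, above both other sets.

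Gained bins were often Polycomb-marked in mES cells. H3K27me3 marked 33.0% and 40.4% of them in WT mES cells and 37.1% and 25.3% in KO mES cells, and H2AK119ub 40.2% and 38.9% in WT and 39.5% and 37.0% in KO. Over all autosomal bins the shares were 6.18% to 9.59% and 9.78% to 10.8%, and in unmarked bins within 2 kb of a WT domain 9.31% to 16.9% and 15.9% to 18.3%. Lost bins had similar shares, at 24.8% to 40.6% and 42.6% to 47.01%. H3K27me3 in both WT mES lists was found on 3422 gained bins (29.9%), and both marks in all 4 WT mES lists on 2104 (18.4%). At the other end, 3421 gained bins (29.9%) were marked in none of the 14 other lists, the WT lists of the rule included, against 75.9% of all autosomal bins.

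Loss of Tet2 in mES cells did not move these bins in a way that the libraries can show. H3K27me3 marked 36.7% ± 5.24 of them in WT against 31.2% ± 8.28 in KO (mean ± SD over 2 libraries), and the difference was -5.49 points with overlapping groups (exact permutation p = 0.667, adjusted 0.8). KO replicate 2, whose list was the shortest at 148 Mb against 187 to 230 Mb in the other 3, was the low value, and without it the difference was 0.367 points. H2AK119ub was 39.6% ± 0.914 and 38.2% ± 1.75, a difference of -1.32 points (exact permutation p = 0.667, adjusted 0.8). Without KO replicate 2 it was -0.0786, without KO replicate 1 it was -2.56, without WT replicate 1 it was -0.672 and without WT replicate 2 it was -1.96. The H2AK119ub difference was 4.33 points higher in HSPCs than in mES cells, and shuffling genotypes within each cell type gave an exact p = 0.111 (adjusted 0.667), where 0.0556 is the smallest that the 36 arrangements allow. Without HSPC WT replicate 2 the value was 2.17 and without HSPC WT replicate 1 it was 6.50.

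By the bin rule, changes of either direction in mES cells were more frequent in the gained HSPC bins than over all bins. In mES cells 145 of them (1.27%) gained and 427 (3.73%) lost H3K27me3 in KO, where 0.359% and 0.933% of all bins did. For H2AK119ub, 226 (1.97%) gained and 2.24% lost it, where 0.448% and 0.624% of all bins did. For both marks the order of losses and gains was that of all bins. A call needs the mark in mES lists, and gained HSPC bins carried it there more often. No mES H3K27me3 list marked 50.1% of the gained HSPC bins, against 87.6% of all bins. For mES H2AK119ub the shares marked in no list were 44.6% and 84.6%. Whether the calls were more frequent beyond this was not tested. Over the 105 genes with 10 or more gained bins, both mES KO H3K27me3 lists lay above both WT lists in 2 and below in 32, while 5.53% of all genes were above and 22.1% below. For mES H2AK119ub it was 20 and 19 genes, with 15.2% and 16.0% of all genes.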

How the data were processed

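CUT&Tag peak lists of 16 mouse libraries (2 marks, 2 cell types, 2 genotypes, 2 replicates) were used. 4 human K562 lists were not used here. Per the labels and methods, the authors used Trimmomatic 0.39 for trimming and Bowtie2 2.4.1 for alignment to mm10 and the Drosophila spike-in, removed duplicates and called broad peaks with MACS2. HOMER 4.9 is also named. The deposited columns are peak start and end positions only, with no count, score or spike-in scaling. A list keeps only what passed a caller, so read depth can change where a peak ends, and a bin near the threshold can pass in 1 library and fail in another.

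Overlapping peaks were merged and the covered share of each 1-kb bin computed with Python 3.11.15, numpy 2.4.6 and pandas 2.3.3. A bin was marked at 50% coverage. Genes were GENCODE protein-coding genes (vM21) on GRCm38, the same assembly as mm10. Group shares were compared by exact two-sided permutation of libraries, with Benjamini-Hochberg adjustment over 6 tests. Replicate lists shared 16 to 69 identical peaks and were counted as separate. The functions were tested on simulated data. Members and gene lists were chosen with earlier results of these data known. Named genes were the 14 with most gained bins, those at the 8 longest runs, the 10 promoters at 0% in WT most covered in the lower KO list, up to 4 genes with a gained bin in each of 9 gene lists, and Tet2, Mbd6, Socs3 and Nfkbia. Alternatives changed the coverage threshold, peak width and joining, bin grid, promoter width, WT domain and libraries.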

Additional observations from a re-analysis of the deposited data

How the results depend on the processing

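Counts moved most with the rule and with single libraries. Requiring 0% in each WT library gave 4794 gained bins, 3359 lost bins and 193 genes with 3 or more gained bins, against 11454, 8003 and 447. With each H3K27me3 library left out in turn there were 20548 to 31527 gained bins, 13020 to 27010 lost bins, 549 to 773 gained promoters (249 with all) and 840 to 1167 such genes, because fewer lists had to meet the rule. Which of gained and lost bins was more numerous in those settings follows from the rule. Thresholds of 25% and 75% gave 13716 and 9014 gained and 10358 and 5488 lost bins. The share within 2 kb of a WT domain ran from 33.4% (0% in each WT library) to 80.2% (domain in either WT library).

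The H2AK119ub difference of gained minus lost bins (0.142) reversed to -1.14 at the 75% threshold, -1.02 with peaks of at least 1 kb, -0.33 with joined peaks and -0.145 with the shifted grid, and ran from -1.49 to 1.77 with libraries left out; the cause was not tested. The mES H3K27me3 difference ran from -11.3 to 0.367 with libraries left out. The HSPC H2AK119ub difference kept its sign under all 16 alternatives run, from 0.847 to 5.19 points. Both ends of this range came from leaving out an H2AK119ub library. Such settings could not change the sign, since both KO values lay above both WT values. The replicate block could not change it either, as it leaves the difference the same by construction. The other settings gave 1.99 to 3.63 points.

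The labels did not say whether same-numbered WT and KO replicates were processed together. The deviations of replicate 1 correlated at -0.165 and -0.466 over 2413 windows for HSPC H3K27me3 and H2AK119ub. In mES cells the values were -0.91 and 0.495, so the signs were mixed and do not settle the pairing. With a replicate block the differences are the same by construction, at 3.02, 0.23, 0.142, -5.49, -1.32 and 4.33, and the exact permutation p ran from 0.125 to 1. The smallest p that the blocked permutation allows is 0.5 within a cell type and 0.125 for the difference between cell types, so the 0.125 is a floor. No result passed a threshold with or without the pairing, and the exact permutation tests used could not reach 0.05 with 2 libraries a group. No read counts were used, so depth limits are unknown.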
